A study of Mus musculus with 18 samples.

Results

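A set of 9 genes of heme synthesis and breakdown was followed across the zones of the liver lobule and across fasting in mouse hepatocytes. They were taken by symbol, as Alas1, Alad, Uros, Urod, Cpox, Ppox, Fech, Hmox1 and Blvrb, and each symbol matched 1 of the 28030 Ensembl gene identifiers of the deposited count table. All 9 passed the filter on low counts and were among the 12477 genes tested. The libraries came from wild-type C57BL/6J males aged 12 weeks, kept on normal chow. Hepatocytes of the pericentral (PC) zone, around the central vein, and of the periportal (PP) zone, where blood enters the lobule, were obtained separately by means of digitonin, which permeabilises cell membranes. For 3 days all mice had learned a schedule of 16 h without food and 8 h of daytime feeding, and on the last day their water held 20% sucrose. Fed mice were killed after 4 h of feeding, at clock hour 13. Fasted mice lost food and sucrose at that hour and were killed after 8 h, at clock hour 21, or after 24 h, at clock hour 13 again. Each of the 6 groups of zone and state held 3 libraries. The labels do not say which libraries share a mouse, so p-values measure the spread between these libraries.

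Heme is an iron-holding ring that is built in a chain of enzyme steps, starting and ending in the mitochondrion. ALAS1 joins glycine and succinyl-CoA in the rate-limiting step, ALAD pairs its product, the middle enzymes close and trim the ring in the cytosol, and CPOX, PPOX and FECH finish it and insert iron. Hepatocytes are large producers, since their cytochrome P450 enzymes carry heme, and free heme in turn lowers ALAS1. Heme oxygenase, the product of Hmox1 or Hmox2, opens the ring into biliverdin, iron and carbon monoxide, and biliverdin reductases make bilirubin. The enzyme of the third step of synthesis is not analysed here.

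Library totals ranged from 18359911 to 26384358 estimated counts, and levels are given as CPM (counts scaled to library size). The summed level of 4 pericentral markers (Cyp2e1, Cyp1a2, Oat and Glul) was 9305 to 18310 CPM in PC libraries and 420 to 2044 CPM in PP libraries. The sum of 4 periportal markers (Cyp2f2, Hal, Gls2 and Sds) was 278 to 1793 CPM against 3134 to 5413 CPM, with the 1793 CPM in PC 24 h replicate 2. That library had 110.9 CPM of Glul, against 928 and 707 CPM in the other PC 24 h libraries and 62.6 to 174.5 CPM in PP. All 4 pericentral markers were called lower in PP in fed and 8 h mice, and 3 of 4, without Glul, at 24 h. In PC, edgeR called all 4 periportal markers higher at 24 h than fed (10.8% of all genes). Their median log2 difference, PP minus PC, was 3.59 in fed mice and 1.83 at 24 h. For the 4 pericentral markers it was -3.87 and -3.73. From fed to 24 h, edgeR called a change in zone difference for 0 of 4 markers of either set (0.016% of all genes). The sum of 4 hepatocyte markers, Alb among them, was 55960 to 97110 CPM in PC and 111400 to 183400 CPM in PP libraries, and 2 of the 4 were called higher in PP. Summed markers of each other cell type, with Alas2 left out of the red cell sum, were at most 53.0 CPM in any library. Those of cholangiocytes, the bile duct cells, were 13.9 to 27.7 CPM in PC and 21.2 to 33.7 CPM in PP. Of these 4 markers 1, Epcam, was at 0 in every library. Averaged over the states, edgeR called 8 of 11 tested Kupffer cell and macrophage markers and 5 of 6 endothelial markers higher in PP, where 10.3% of all genes tested were called higher, against 0 of 3 stellate cell and 0 of 1 leukocyte markers. Called higher in PP on that average were also 1 of 2 cholangiocyte markers (Sox9) and 2 of 5 red cell markers (Hbb-bs and Hba-a1). Alas2, left out of the red cell sum, was counted among those 5. In single states 0 of 11 Kupffer markers were called, and 1 of 6 endothelial markers was, at 8 h. Sox9 was called in all 3 states. Their part in the zone differences was not tested. In bulk libraries, fewer cells of a type and less RNA per cell cannot be told apart.

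Per kilobase of the principal transcript, Alas1 had the highest level of the 9 genes at 109 CPM per kb, averaged over the 6 group means. Blvrb followed at 79.6, Cpox at 62.0, Alad at 57.1 and Urod at 42.8 CPM per kb. The other 4 genes were well below these on the same per-kilobase scale, with Uros at 6.99, Ppox at 6.50, Hmox1 at 3.14 and Fech at 2.78 CPM per kb. Fech has the longest principal transcript of the 9, at 6571 bases. The plot of levels by group shows 3 patterns that the sections below take in turn. Alas1 dipped at 8 h, Alad, Cpox and Blvrb were higher in PC in every state, and Uros, Ppox and Fech were lowest at 24 h, for Uros in PC alone.

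**Figure D1:**
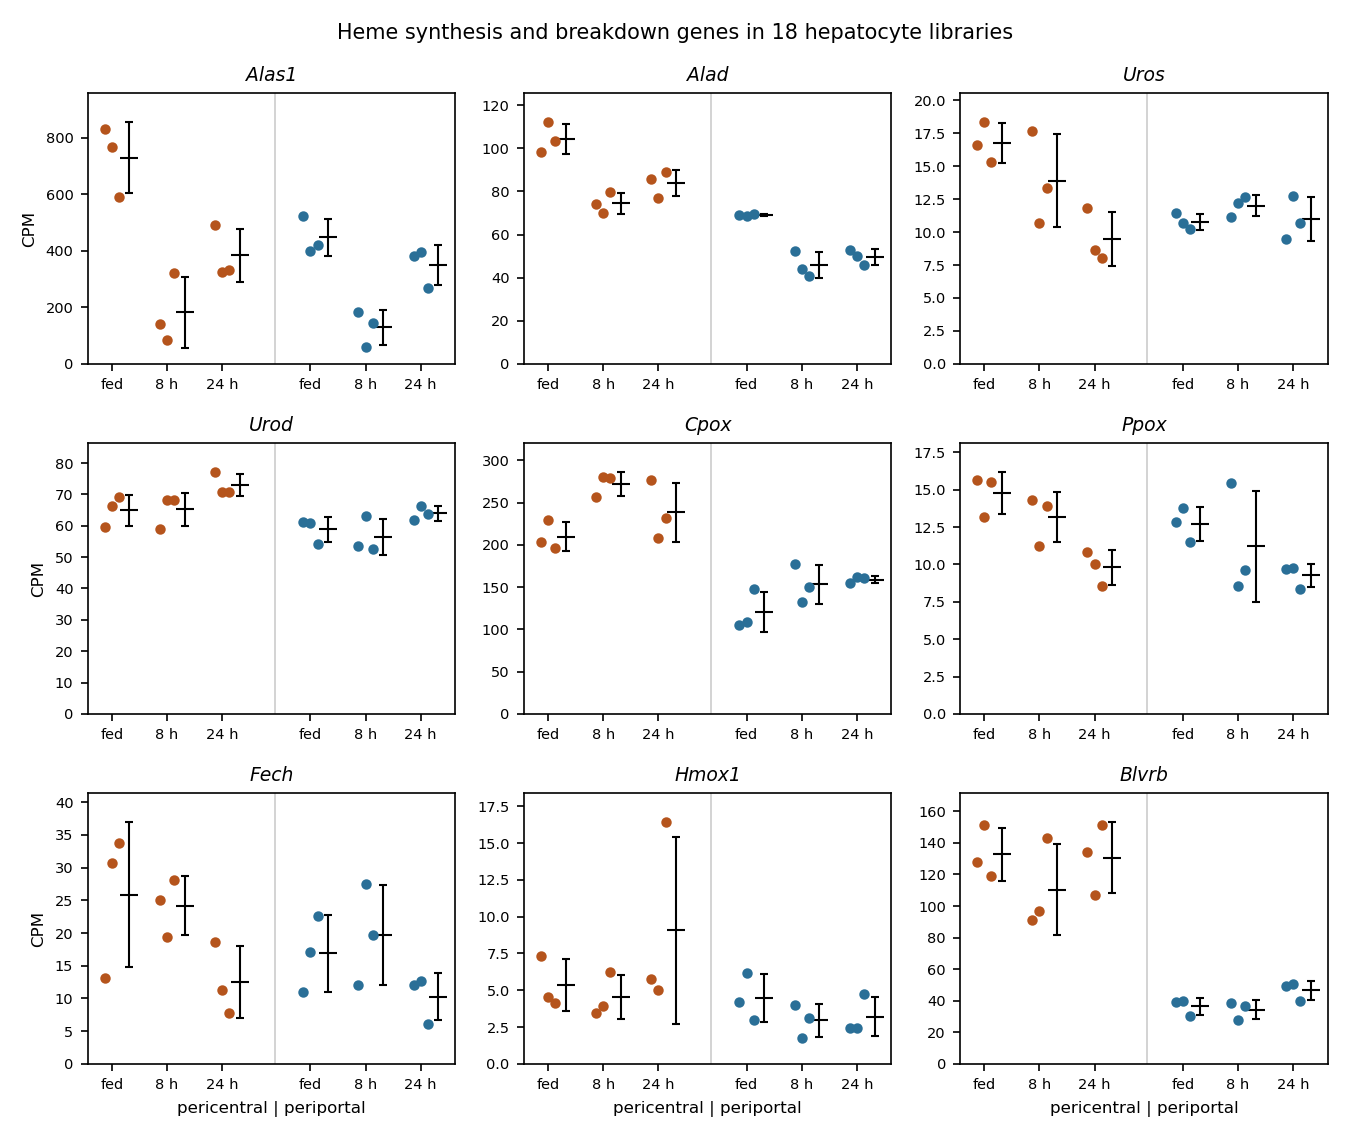
CPM of each of the 9 genes (linear axes from 0) in pericentral (orange) and periportal (blue) hepatocytes of fed, 8 h and 24 h fasted mice, with 1 dot per library and the mean with its SD (n = 3) in black. Alas1 in the 6 fed libraries (398 to 831 CPM) lies above all 6 libraries at 8 h (61.2 to 321 CPM), and Blvrb in every pericentral library (90.9 to 151 CPM) lies above every periportal one (27.6 to 50.4 CPM).

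Alas1 (ENSMUSG00000032786, chr9:106233455-106248654, minus strand, GRCm38) and Alad (ENSMUSG00000028393, chr4:62509169-62519918, minus strand) encode the first and the second enzyme of the chain, and both fell at 8 h in both zones. Their promoters are shown with marks for motifs that include the E-box (CACGTG), which clock factors bind. The windows are from RefSeq (GRCm38.p6), run 5′ to 3′ on the gene's strand from 250 bases before to 50 bases after the start, and lie at chr9:106247681-106247980 and chr4:62519860-62520159. Capitals mark a core site of nuclear respiratory factor 1 (NRF1, GCGCATGC) in Alas1, matched on both strands with overlap, and an E-box in Alad.
Alas1: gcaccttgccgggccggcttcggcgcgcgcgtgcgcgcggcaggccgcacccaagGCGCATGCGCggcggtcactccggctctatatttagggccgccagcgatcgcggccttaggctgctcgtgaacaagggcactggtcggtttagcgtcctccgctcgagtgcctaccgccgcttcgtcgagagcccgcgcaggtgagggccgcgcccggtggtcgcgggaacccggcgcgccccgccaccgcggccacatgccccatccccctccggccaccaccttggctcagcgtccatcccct
Alad: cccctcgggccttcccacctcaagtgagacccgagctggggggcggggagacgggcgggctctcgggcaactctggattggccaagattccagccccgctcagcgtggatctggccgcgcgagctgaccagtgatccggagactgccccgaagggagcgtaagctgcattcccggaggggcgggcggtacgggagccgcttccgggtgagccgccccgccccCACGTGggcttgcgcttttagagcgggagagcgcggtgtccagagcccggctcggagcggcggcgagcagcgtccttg

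Promoters were found for 7 of the 9 genes, and both strands were searched for 5 motifs: the E-box, the D-box (TTANGTAA), the antioxidant response element (TGACNNNGC), the NRF1 core and a forkhead site (TGTTTAC). The NRF1 core of Alas1 begins 195 bases before the start, and a second RefSeq start of the gene has the same site after it. Neither window of Alas1 held an E-box. Alad has an E-box 28 bases before the start shown and another, outside the printed window, 105 bases before its second RefSeq start. An E-box also lies 49 bases before the start of Urod and 250 bases before that of Uros, at the edge of the window. Windows of Cpox, Ppox and Blvrb held none of the 5, and matches of different motifs did not overlap. A match describes letters, not binding, and the part of these motifs in any change was not tested. Among all 32851 promoters of the table, 7.15% held the E-box, 2.71% the NRF1 core, 2.32% the D-box, 3.65% the forkhead site and 12.4% the antioxidant response element.

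Alas1 was the gene of the 9 that moved most at 8 h against fed. At 24 h against fed, averaged over the zones, Fech moved more (log2 -0.88 against -0.64 for Alas1). The PC libraries of Alas1 had 831, 767 and 591 CPM in fed mice, 141, 83.7 and 321 CPM at 8 h, then 492, 326 and 333 CPM at 24 h. In PP libraries the values were 522, 398 and 422 CPM fed, 184, 61.2 and 145 CPM at 8 h, then 382, 396 and 267 CPM at 24 h. Within each zone all fed libraries lay above those at 24 h, and all at 24 h above those at 8 h, with the closest libraries at 326 and 321 CPM in PC and at 396 and 398 CPM in PP.

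The fall of Alas1 at 8 h was -2.00 on the log2 scale in PC (SE 0.44, edgeR adjusted p 0.00776) and -1.78 in PP (SE 0.44, adjusted p 0.015). The average of both zones was -1.89 (SE 0.31, edgeR adjusted p 0.000463). The PC call was lost in a fit of those groups alone (edgeR adjusted p 0.0577), and the PP call without PP fed replicate 1 (-1.66, adjusted p 0.0533). From 8 h to 24 h Alas1 rose by 1.25 averaged over the zones (SE 0.31, edgeR adjusted p 0.0113), which no alternative ended. Within single zones this rise was 1.08 in PC (SE 0.43, edgeR adjusted p 0.14) and 1.42 in PP (SE 0.44, adjusted p 0.0646) and was not called. It was called in PC without PC 8 h replicate 3 (1.76, edgeR adjusted p 0.0149), the library with 321 CPM, and in PP by DESeq2 (0.0146), by limma-voom (0.034), with the replicate block (0.0492) and without PC 8 h replicate 2 (0.0356) or 3 (0.023). At 24 h the average change of Alas1 against fed was -0.64 (log2, SE 0.30, edgeR adjusted p 0.119), which was not called. That value was called in a fit of its own groups alone (edgeR adjusted p 0.00335) and without PC 8 h replicate 3 (-0.65, adjusted p 0.0437).

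Between the zones, fed PC libraries of Alas1 (591 to 831 CPM) lay above fed PP ones (398 to 522 CPM). The log2 difference, PP minus PC, was -0.71 (SE 0.43, edgeR adjusted p 0.392) and was called only when those groups were fitted alone (adjusted p 0.0243). At 8 h it was -0.49 (SE 0.43) and at 24 h -0.14 (SE 0.43), with overlapping libraries. Reads of Alas1 and of 4930500F10Rik, which covers 7.53% of its exonic bases on the opposite strand, cannot be told apart without strand.

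Genes that act on ALAS1 or its gene were set beside it. Clpx, the mitochondrial unfoldase that acts on ALAS enzymes, ran the other way: its PC libraries had 67.4, 88.8 and 83.8 CPM fed, 429, 497 and 398 CPM at 8 h, then 161, 94.5 and 149 CPM at 24 h. It rose by 2.40 at 8 h (SE 0.14, edgeR adjusted p 4.8e-09) and was 0.97 above fed at 24 h (SE 0.13, adjusted p 2.71e-05), averaged over the zones. Lonp1, a mitochondrial protease with ALAS1 among its substrates, had changes of 0.08 and 0.12 that were not called (edgeR adjusted p 0.455 and 0.216). Ppargc1a, a coactivator of Alas1 in fasting, rose by 0.55 at 8 h and 1.68 at 24 h (edgeR adjusted p 0.022 and 1.83e-06) and was higher in PP by 0.99 (adjusted p 6.04e-05). Foxo1, its forkhead partner, rose by 0.74 and 1.32 (edgeR adjusted p 0.000243 and 6.5e-07). Both were thus highest at 24 h, while Alas1 was lowest at 8 h.

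Fasting for 8 h and clock hour 21 cannot be told apart in this design. Of 11 clock genes, edgeR called 6 lower and 4 higher at 8 h averaged over the zones, where 26.4% of all genes were called. At 24 h, at the clock hour of the fed mice, 2 were called lower (Per2 and Per3) and 2 higher (Per1 and Ciart), against 34.5% of all genes. At 8 h Per2, a period gene, changed by -3.74 (SE 0.13, adjusted p 8.69e-12), and Arntl, which encodes the activator BMAL1, by 2.65 (SE 0.25, adjusted p 2.65e-06). Nr1d2, which encodes the heme-binding receptor REV-ERB beta, fell by 1.38 at 8 h (SE 0.14, edgeR adjusted p 3.41e-06) and was not called at 24 h against fed (0.36, adjusted p 0.0552). Its PC libraries went from 41.7 to 58.5 CPM fed to 13.6 to 22.8 CPM at 8 h and 62.8 to 88.6 CPM at 24 h. Its relative Nr1d1 was not called at 8 h or 24 h against fed averaged over the zones, and was called higher at 24 h than at 8 h. Alas1 and Nr1d2 were both lowest at 8 h, and the part of the clock hour in the change of Alas1 was not tested.

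**Figure D2:**
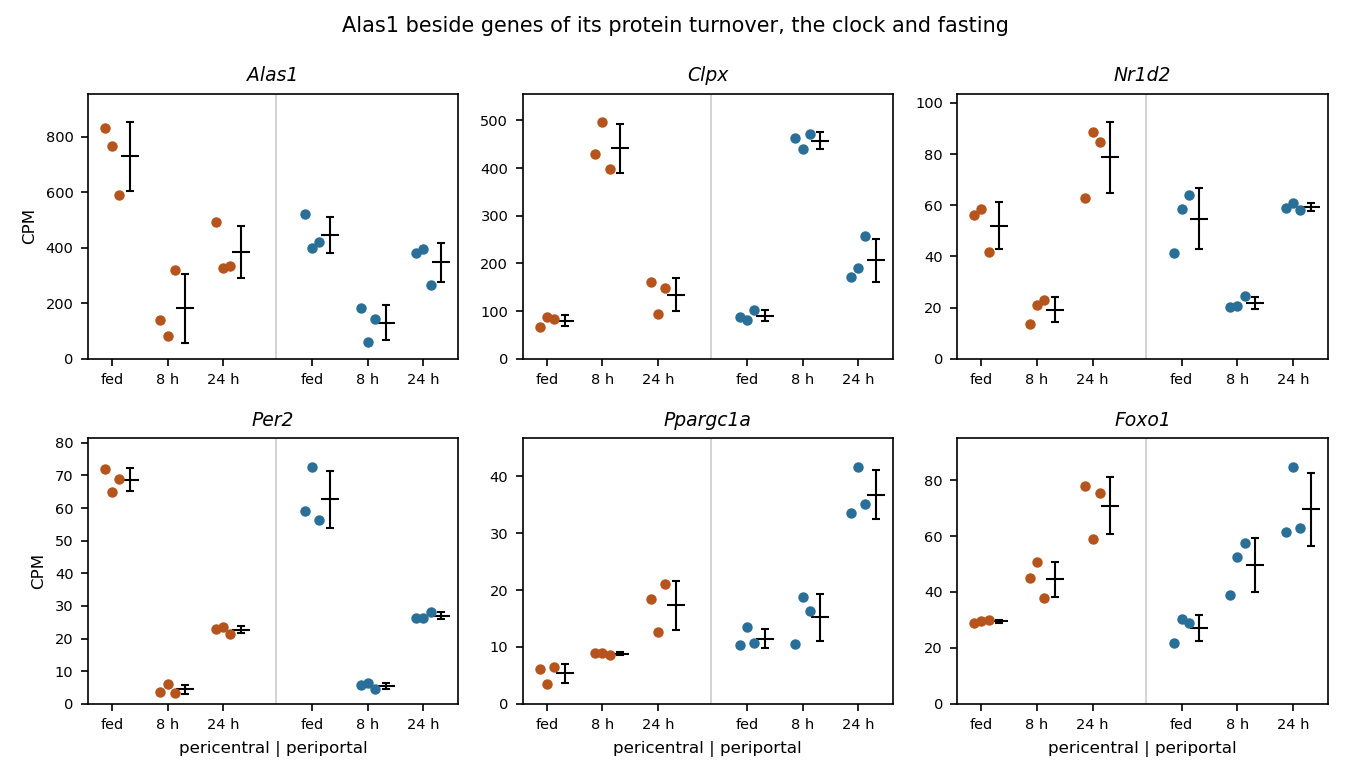
CPM (linear axes from 0) of Alas1 and of 5 genes that act on it or mark the clock, by group, with 1 dot per library, PC in orange and PP in blue, and the mean with its SD (n = 3) in black. At 8 h Alas1 (61.2 to 321 CPM) and Per2 (3.40 to 6.27 CPM) are at their lowest and Clpx (398 to 497 CPM) at its highest in both zones, while Ppargc1a and Foxo1 have their highest group means at 24 h.

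Among 6705 genes with a mean of at least 10 CPM, Hsd17b7, an enzyme of cholesterol synthesis, followed Alas1 most closely over the 18 libraries (Pearson r of log2 CPM 0.892). Srsf2, a splicing factor (0.877), and Rnf170, a ubiquitin ligase (0.871), came next. Hsd17b7 averaged 125 ± 22.1 CPM in fed, 51.5 ± 6.32 in 8 h and 79.9 ± 7.96 CPM in 24 h PC libraries (SD, n = 3 each), the order of states that Alas1 had in PC. In PP libraries it averaged 79.0 ± 5.44, 43.2 ± 9.35 and 86.0 ± 6.54 CPM, with the mean at 24 h above that of fed mice, unlike Alas1. For Alad the closest genes were Phldb2 (0.944), Clstn3 (0.936) and Gda, guanine deaminase (0.928). Clstn3 averaged 29.7 ± 6.17 CPM in fed PC and 6.00 ± 1.90 CPM in fed PP libraries (SD, n = 3 each). For Hmox1 they were Kansl2 (0.831), Map3k7 (0.77) and Idh2 (0.768). These libraries share their zones and states, so the values are given as a description.

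The zone comparison asked which steps of the pathway differ between PC and PP hepatocytes. All 9 genes had a log2 difference, PP minus PC, below 0 averaged over the states, with a median of -0.44 against 0 over all genes tested. Alad, Urod, Cpox and Blvrb were called, 4 of 9 and all lower in PP, where 20.3% of all genes tested were called and 9.96% were called lower in PP. In fed mice Alad, Uros, Cpox and Blvrb were called (4 of 9, against 8.01% of all genes in both directions and 4.13% lower in PP). At 8 h the 3 called genes were Alad, Cpox and Blvrb (7.14% of all genes, 3.42% lower in PP), and the same 3 were called at 24 h (4.17%, 2.47% lower in PP). For these 3 of 9 genes every PC library lay above every PP library of its state in all 3 states, which 3.34% of all genes tested did.

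Blvrb (ENSMUSG00000040466, chr7:27447978-27466144, plus strand), the gene of biliverdin reductase B, had the largest zone difference of the 9. PC libraries had 128, 151 and 119 CPM fed, 90.9, 96.9 and 143 CPM at 8 h, then 134, 107 and 151 CPM at 24 h. In PP libraries it had 39.4, 39.5 and 30.4 CPM fed, 38.8, 27.6 and 36.6 CPM at 8 h, then 49.6, 50.4 and 39.9 CPM at 24 h. The groups did not overlap, since the lowest PC library had 90.9 CPM and the highest PP library 50.4 CPM. Averaged over the states the PP level was 0.312 times that in PC (log2 -1.68, SE 0.11, edgeR adjusted p 3.18e-08), and the log2 difference was -1.87 in fed, -1.68 in 8 h and -1.49 in 24 h mice. All 4 of these calls held under every alternative run. With fasting Blvrb moved by -0.27 to 0.44 within the zones, with 0 of 6 changes called by edgeR, 1 of them at an unadjusted p under 0.05. Averaged over the zones its change from 8 h to 24 h was 0.34 (SE 0.13, edgeR adjusted p 0.0774), called by DESeq2 and without PC 8 h replicate 3 (0.45, adjusted p 0.015) or PC 24 h replicate 2 (0.40, adjusted p 0.0451).

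Alad was higher in PC and lower in fasting. Its PC libraries had 98.1, 112 and 103 CPM fed, 74.1, 69.8 and 79.7 CPM at 8 h, then 85.6, 77.0 and 88.8 CPM at 24 h. The PP libraries had 69.1, 68.4 and 69.7 CPM fed, 52.5, 44.1 and 41.0 CPM at 8 h, then 52.9, 50.3 and 45.7 CPM at 24 h. Fed libraries lay above fasted ones of the same zone without overlap, at 8 h as at 24 h.

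The zone difference of Alad was -0.60 in fed, -0.70 in 8 h and -0.76 in 24 h mice (SE 0.10 each, edgeR adjusted p 0.000819, 0.000297 and 0.000305). It fell at 8 h by 0.49 in PC (adjusted p 0.00276) and by 0.59 in PP (adjusted p 0.00073), with an SE of 0.10 each by edgeR. At 24 h the log2 change against fed was -0.32 in PC (SE 0.10, edgeR adjusted p 0.0269) and -0.48 in PP (SE 0.10, adjusted p 0.00263). The PC call at 24 h was lost when only those groups were fitted (edgeR adjusted p 0.0527) and without PC fed replicate 2 (-0.27, adjusted p 0.0988), PC fed replicate 3 (-0.33, adjusted p 0.0557) or PC 24 h replicate 2 (-0.26, adjusted p 0.109), the library with the highest periportal marker sum of the PC libraries. Unlike Alas1, Alad showed no called rise from 8 h to 24 h (0.14 averaged over the zones, SE 0.07, edgeR adjusted p 0.167).

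Cpox (ENSMUSG00000022742, chr16:58670292-58717636, plus strand) encodes coproporphyrinogen oxidase, which starts the final, mitochondrial part of the chain. In PC it had 203, 229 and 197 CPM fed, 256, 280 and 279 CPM at 8 h, then 277, 208 and 232 CPM at 24 h. In PP it had 105, 109 and 147 CPM fed, 178, 132 and 151 CPM at 8 h, then 154, 162 and 160 CPM at 24 h. PC libraries of every state (lowest 197 CPM) lay above all PP libraries (highest 178 CPM). The zone difference was -0.80 in fed, -0.83 in 8 h and -0.59 in 24 h mice (SE 0.14 each, edgeR adjusted p 0.00143, 0.00133 and 0.0207). The 24 h call was lost without PC 24 h replicate 1 (-0.47, edgeR adjusted p 0.106) or 3 (-0.61, adjusted p 0.0544), and without PP 24 h replicate 1, 2 or 3 (-0.57, -0.60 and -0.60, adjusted p 0.0639, 0.0682 and 0.0788).

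Cpox was the only gene of the 9 that edgeR called higher against fed. Averaged over the zones it rose by 0.36 at 8 h (SE 0.10, edgeR adjusted p 0.0108), a call that no alternative ended, and by 0.29 at 24 h (SE 0.10, adjusted p 0.028). The 24 h call was lost without any 1 of 7 libraries, with log2 values of 0.28 and 0.27 without PC fed replicates 1 and 3, 0.25 and 0.25 without PP fed replicates 1 and 2, 0.23 without PC 24 h replicate 1, and 0.29 and 0.29 without PP 24 h replicates 2 and 3. Within single zones no change of Cpox was called, at 0.38 (PC, 8 h), 0.35 (PP, 8 h), 0.19 (PC, 24 h) and 0.40 (PP, 24 h, edgeR adjusted p 0.0535). Without PP fed replicate 3, the library with 147 CPM, the first, second and last of these were called (0.38, 0.52 and 0.56, adjusted p 0.0428, 0.0202 and 0.00983). The last was also called by DESeq2 and limma-voom, with DESeq2 size factors, with scaling that left out the 20 most abundant genes, and without PP 8 h replicate 1 or 2 or PC 24 h replicate 1. Its exons overlap those of Gpr15, on the opposite strand, in 3.06% of bases, and Gpr15 averaged 0.0193 CPM.

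Urod (ENSMUSG00000028684, chr4:116989965-116994413, minus strand), uroporphyrinogen decarboxylase of the fifth step, varied least. It ranged from 59.0 to 77.0 CPM in the 9 PC libraries and from 52.5 to 66.3 CPM in the 9 PP ones. The libraries overlapped between the zones in fed and 8 h mice and not at 24 h, where PC had 77.0, 70.9 and 70.9 CPM and PP 61.7, 66.3 and 63.9 CPM. The average zone difference was -0.18 (SE 0.05, edgeR adjusted p 0.025). That call was lost with no filter on low counts (edgeR adjusted p 0.0507) and without PP 8 h replicate 3 (-0.16, adjusted p 0.0565). With fasting Urod moved by -0.06 to 0.18 within the zones, with 0 of 6 changes called by edgeR and 0 at an unadjusted p under 0.05.

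Uros (ENSMUSG00000030979, chr7:133686243-133710072, minus strand), uroporphyrinogen III synthase of the fourth step, fell in PC hepatocytes at 24 h. PC libraries had 16.6, 18.3 and 15.3 CPM fed, 17.7, 10.7 and 13.3 CPM at 8 h, then 11.8, 8.60 and 8.01 CPM at 24 h. PP libraries stayed between 9.45 and 12.8 CPM in all 3 states. Fed and 24 h libraries did not overlap in PC and did in PP.

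The PC change of Uros at 24 h was -0.82 (SE 0.17, edgeR adjusted p 0.00297), called under every alternative run, and that in PP was 0.03 (SE 0.18, adjusted p 0.939). The difference between these changes was 0.85 (SE 0.25, p 0.00323), with an edgeR adjusted p of 0.357 over all genes, so it was not called. In fed mice Uros was lower in PP (log2 -0.64, SE 0.17, edgeR adjusted p 0.029). That call was lost without PC fed replicate 1 (-0.65, edgeR adjusted p 0.0715) or 2 (-0.58, adjusted p 0.121), and without PP fed replicate 1, 2 or 3 (-0.68, -0.64 and -0.61, adjusted p 0.0638, 0.0839 and 0.108). The zone difference was -0.21 at 8 h and 0.21 at 24 h (edgeR adjusted p 0.545 and 0.614). Averaged over the zones, the 24 h change of -0.40 (edgeR adjusted p 0.0197) was lost without PC 24 h replicate 3 (-0.34, adjusted p 0.0531) or PP 24 h replicate 1 (-0.35, adjusted p 0.0501).

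Ppox (ENSMUSG00000062729, chr1:171275990-171281186, minus strand), protoporphyrinogen oxidase of the seventh step, was lower at 24 h. The fed PC libraries had 15.7, 13.2 and 15.5 CPM, followed by 14.3, 11.3 and 13.9 CPM at 8 h and 8.55 to 10.8 CPM at 24 h. In PP it had 12.9, 13.8 and 11.5 CPM fed, 15.5, 8.54 and 9.64 CPM at 8 h, then 9.67, 9.77 and 8.37 CPM at 24 h. All fed libraries lay above all 24 h libraries, and those at 8 h overlapped with both.

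The change of Ppox at 24 h averaged over the zones was -0.52 (SE 0.13, edgeR adjusted p 0.00436), called under every alternative run. Within PC the change was -0.59 (SE 0.18, edgeR adjusted p 0.0264), a call lost without PC fed replicate 1 (-0.55, adjusted p 0.0775) or 3 (-0.56, adjusted p 0.077) and without PC 24 h replicate 2 (-0.61, adjusted p 0.0574) or 3 (-0.50, adjusted p 0.108). Within PP it was -0.46 (SE 0.18, edgeR adjusted p 0.09) and was not called. Without PP 8 h replicate 1, the library with 15.5 CPM, the 8 h change averaged over the zones went from -0.17 (edgeR adjusted p 0.359) to -0.32 (adjusted p 0.0261), and the zone difference at 8 h from -0.23 (adjusted p 0.519) to -0.55 (adjusted p 0.0313). Without that library the average zone difference (-0.29, adjusted p 0.0165) and the changes in PP at 8 h (-0.48, adjusted p 0.0457) and 24 h (-0.46, adjusted p 0.0218) were called too. B4galt3 overlaps 17.5% of the exonic bases of Ppox on the opposite strand at a mean of 10.5 CPM, near the level of Ppox, so the level of Ppox is uncertain.

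Fech (ENSMUSG00000024588, chr18:64452914-64490251, minus strand) encodes ferrochelatase, which inserts iron in the last step. Its PC libraries had 13.2, 30.6 and 33.7 CPM fed, 25.1, 19.3 and 28.2 CPM at 8 h, then 18.6, 11.3 and 7.76 CPM at 24 h. The PP libraries had 10.9, 17.1 and 22.6 CPM fed, 12.0, 27.4 and 19.7 CPM at 8 h, then 12.1, 12.7 and 6.12 CPM at 24 h. The 24 h libraries were low, with an overlap through fed replicate 1 of each zone and PP 8 h replicate 1.

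Averaged over the zones, Fech was lower at 24 h than in fed mice (log2 -0.88, SE 0.31, edgeR adjusted p 0.0395) and lower than at 8 h (log2 -0.94, SE 0.31, adjusted p 0.0445). These calls lay at the threshold. Against fed, the call was lost with no filter (edgeR adjusted p 0.0821), with the replicate block (-0.83, adjusted p 0.0714), in a fit of its own groups alone (0.0639), and in 9 of 18 fits without 1 library (-0.94 to -0.74). Those 9 were PC fed replicates 2 and 3, PP fed replicates 2 and 3, PP 8 h replicate 3, PC 24 h replicates 2 and 3, and PP 24 h replicates 1 and 3. Against 8 h, it was lost with no filter (0.0943) and with the replicate block (-0.91, adjusted p 0.0699). It was also lost without any 1 library other than PC fed replicates 1 and 3, PP fed replicates 1 and 3, PP 8 h replicate 1 and PC 24 h replicate 1, with log2 values of -1.03 to -0.78.

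**Figure D3:**
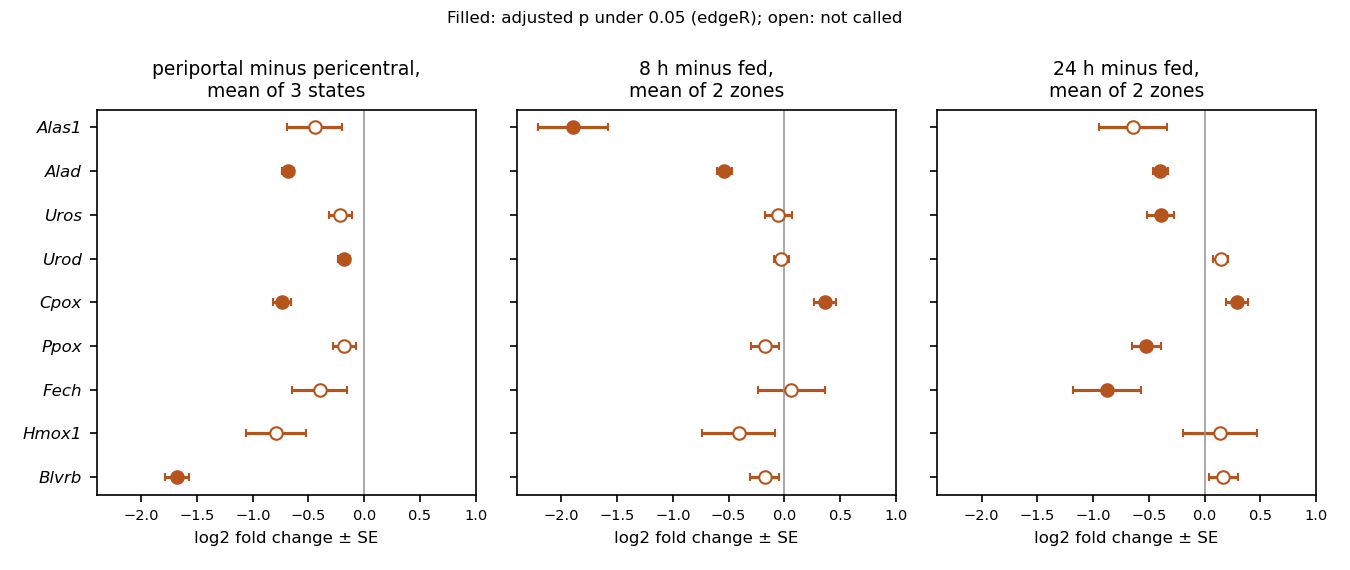
Log2 fold change with its SE (edgeR) of the 9 genes between the zones, at 8 h against fed and at 24 h against fed, averaged over the states or zones, with filled dots for an adjusted p under 0.05. All 9 zone differences lie below 0, led by Blvrb (-1.68), the largest fasting change is that of Alas1 at 8 h (-1.89), and Cpox alone has filled dots above 0.

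Hmox1 (ENSMUSG00000005413, chr8:75093621-75100589, plus strand), the inducible heme oxygenase, had low levels, with 39 to 332 counts per library. Its PC libraries had 7.36, 4.53 and 4.13 CPM fed, 3.44, 3.95 and 6.23 CPM at 8 h, then 5.78, 5.00 and 16.4 CPM at 24 h. The PP libraries had 4.21, 6.19 and 2.98 CPM fed, 4.00, 1.73 and 3.12 CPM at 8 h, then 2.40, 2.45 and 4.74 CPM at 24 h. PC 24 h replicate 3 stood far above the others, and the zones did not overlap at 24 h alone.

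The zone difference of Hmox1 was -0.79 averaged over the states (SE 0.27, edgeR adjusted p 0.051), just outside the threshold. It was called by DESeq2 (adjusted p 0.0142), with scaling that left out the 20 most abundant genes (-0.80, edgeR adjusted p 0.0485), and without PP fed replicate 2 (-0.90, 0.0363), PC 8 h replicate 1 (-0.85, 0.0498), PP 8 h replicate 1 (-0.89, 0.0383), PC 24 h replicate 1 (-0.88, 0.0375) or 2 (-0.89, 0.0265), or PP 24 h replicate 3 (-0.92, 0.0326). At 24 h it was -1.49 (SE 0.47, edgeR adjusted p 0.0991), and -0.75 without PC 24 h replicate 3 (adjusted p 0.423). DESeq2 called the 24 h difference (adjusted p 0.0194). With fasting, 0 of 6 changes of Hmox1 within the zones were called by edgeR, 1 of them at an unadjusted p under 0.05.

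Kupffer cells, the liver's macrophages, take up aged red cells and are known for high Hmox1. The summed level of 12 Kupffer cell and macrophage markers ranged from 1.16 to 9.14 CPM in PC and from 0.808 to 35.7 CPM in PP libraries, with 0 of the 12 at 0 in every library. PC 24 h replicate 3 had both the highest Hmox1 (16.4 CPM) and the highest marker sum of the PC libraries (9.14 CPM). PP 24 h replicate 3 had the highest marker sum of all (35.7 CPM) with 4.74 CPM of Hmox1. The marker sums were thus mostly higher in PP while Hmox1 was not, and their part in the level of Hmox1 was not tested.

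**Figure D4:**
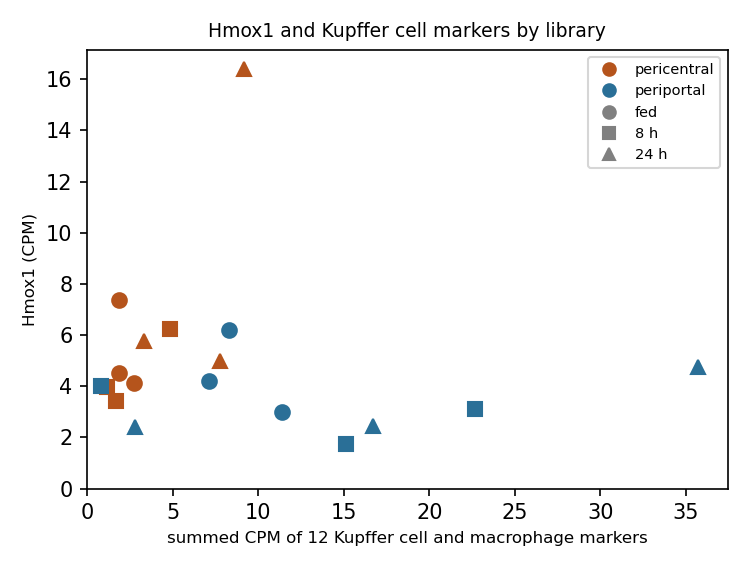
Hmox1 (CPM) against the summed CPM of 12 Kupffer cell and macrophage markers, 1 point per library, with colour for the zone and shape for the state. The point at 16.4 CPM of Hmox1 is PC 24 h replicate 3, and the point farthest right, at 35.7 CPM of markers, is PP 24 h replicate 3 with 4.74 CPM of Hmox1.

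The fasting comparison asked which of the 9 genes moved within each zone. At 8 h against fed Alas1 and Alad were called lower in PC, where 13.8% of all genes tested were called (6.57% lower). The same 2 were called lower in PP (14.4% of all genes, 6.85% lower). At 24 h against fed Alad, Uros and Ppox were called lower in PC (3 of 9, against 21.8% of all genes, 11.1% lower). In PP Alad was called lower (1 of 9, against 19.6%, 10% lower). From 8 h to 24 h edgeR called 0 of 9 in PC (9.71% of all genes), with 5 at an unadjusted p under 0.05, 1 called by DESeq2 and 0 by limma-voom. In PP it called 0 of 9 (7.46%), with 2 at an unadjusted p under 0.05 and 1 called by DESeq2 and 1 by limma-voom. Counting calls in either direction, the shares of the 9 genes lay above that of all genes in 3 of these 6 contrasts and below it in 3, in each by about 1 gene.

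Averaged over the zones, 3 of the 9 were called at 8 h (26.4% of all genes), 5 at 24 h (34.5%) and 2 between 8 h and 24 h (20.2%). The 5 at 24 h were Alad, Uros, Ppox and Fech, which fell, and Cpox, which rose. The median change of the 9 genes at 24 h was -0.40, against 0.01 over all genes tested. The 8 h and 24 h comparisons share the fed libraries. The difference in change between the zones was called for 0 of 9 genes from fed to 8 h (0% of all genes), from fed to 24 h (0.016%) and from 8 h to 24 h (0%) by edgeR, and for 0 of 9 by DESeq2 and by limma-voom. At an unadjusted p under 0.05 the counts were 0, 1 (Uros) and 0.

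Other genes of heme breakdown and of bile pigment handling were 5 in number. Hmox2, the constitutive heme oxygenase, rose by 0.81 at 8 h and 0.73 at 24 h averaged over the zones (SE 0.06 each, edgeR adjusted p 8.86e-08 and 2.25e-07). Its PC libraries had 33.4 to 38.0 CPM fed, 55.8 to 63.8 CPM at 8 h and 56.6 to 57.6 CPM at 24 h, without overlap between fed and fasted mice. Slco1b2, an uptake carrier for bilirubin and bile acids, was lower in PP, with a log2 difference of -1.45 (SE 0.09, edgeR adjusted p 1.54e-08). Abcc2, which exports conjugated bilirubin into bile, and Ugt1a1, which conjugates it, were lower in PP as well (log2 -0.60 and -0.53, edgeR adjusted p 1.33e-05 and 0.000239). Hmox2 was called higher in PP (0.15, SE 0.05, adjusted p 0.0366). Of the 5 genes, 3 were thus called lower and 1 higher in PP, where 9.96% and 10.3% of all genes were. Blvra, the other biliverdin reductase, had a zone difference of 0.00 (SE 0.09, adjusted p 1).

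Of 24 genes of heme precursors, mitochondrial transport and heme carriage, 2 were called higher and 5 lower in PP averaged over the states, with a median of -0.06. These 7 of 24 stand against 20.3% of all genes called in either direction. Slc48a1, a heme carrier of lysosomes, was the lowest at -0.64 (SE 0.08, edgeR adjusted p 1.05e-05), and Sucla2 and Suclg1, subunits of succinyl-CoA ligase, were higher by 0.26 and 0.29. At 8 h 2 were called higher and 4 lower, and at 24 h 5 higher and 2 lower, near the 26.4% and 34.5% of all genes called. Slc25a37, mitoferrin 1, which brings iron to ferrochelatase, fell by 1.11 and 1.07 (SE 0.14 each, edgeR adjusted p 2.57e-05 and 2.68e-05). Abcb10, a transporter of the inner mitochondrial membrane that binds mitoferrin 1, fell by 0.45 and 0.69 (SE 0.10 each, edgeR adjusted p 0.00207 and 3.92e-05). Flvcr2, a carrier first linked to heme, rose by 1.74 and 2.57 (edgeR adjusted p 0.000102 and 1.57e-06) from 0.519 to 2.24 CPM in fed libraries.

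Alas2, the red cell form of the first step, was at 29.2 to 66.5 CPM in all 18 libraries. The summed level of 6 other red cell genes, globins among them, was 0.202 to 53.0 CPM. Alas2 fell by 0.50 at 24 h averaged over the zones (SE 0.11, edgeR adjusted p 0.00193), when the red cell sum was 0.586 to 53.0 CPM. Apex2, at a mean of 6.71 CPM, and Mir3620, which is not in the count table, overlap 12.9% and 2.54% of its exonic bases on the opposite strand. The origin of reads in those shared bases is uncertain.

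Of 15 regulators of these genes, 4 were called higher and 3 lower at 8 h, and 7 higher and 2 lower at 24 h, where 26.4% and 34.5% of all genes were called. Between the zones, averaged over the states, 2 were called higher in PP and 2 lower, against 10.3% and 9.96% of all genes. Nr1i3, the constitutive androstane receptor that induces Alas1 in response to drugs, was lower in PP on that average (log2 -1.26, SE 0.15, edgeR adjusted p 1.31e-05). Within states it was called in fed and 8 h mice and not at 24 h. Averaged over the zones Nr1i3 rose by 0.88 at 24 h (edgeR adjusted p 0.00136), a rise called in PP and not in PC. Nr1i2, the pregnane X receptor, rose by 0.46 and 0.96 (edgeR adjusted p 0.000547 and 3.71e-07). Bach1, the heme-sensing repressor of Hmox1, rose by 0.61 at 24 h (SE 0.10, edgeR adjusted p 0.000114), a rise called in PC and not in PP. Nfe2l2, which encodes the activator NRF2, fell by 0.52 at 24 h (SE 0.12, edgeR adjusted p 0.0038). Of 7 tested targets of NRF2, the called ones were all lower, 3 at 8 h (Gclm, Srxn1 and Ftl1) and 2 at 24 h (Txnrd1 and Srxn1), against 26.4% and 34.5% of all genes called in either direction.

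Of 13 genes of proteins that carry heme, 4 were called higher and 6 lower in PP averaged over the states, against 20.3% of all genes called in either direction. Cyp2e1 and Cyp1a2 were lower in PP (log2 -3.75 each, edgeR adjusted p 2.27e-06 and 3.45e-06). Both, and Cyp2f2 among those called higher, are zone markers used here to check the labels. Their calls therefore say nothing about heme proteins as a set. Cyp7a1, the rate-limiting enzyme of bile acid synthesis (log2 -3.39, SE 0.44, adjusted p 8.23e-05), and Cyb5a, cytochrome b5 (log2 -0.73, SE 0.09, adjusted p 1.14e-05), were lower too. Tdo2, the heme enzyme that opens tryptophan, was higher in PP by 0.63 (SE 0.16, edgeR adjusted p 0.0118). With fasting 1 of the 13 was called higher and 2 lower at 8 h, and 2 higher and 2 lower at 24 h, near the shares of all genes (26.4% and 34.5%). Cyp51, of cholesterol synthesis, fell by 1.17 and 0.98 (SE 0.15 each, edgeR adjusted p 3.44e-05 and 0.000129).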

How the data were processed

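RNA was measured in 18 libraries of mouse hepatocytes. Per-gene estimated counts were deposited as 1 table, made with kallisto 0.46.0 on mm10 per the submitters' processing notes. The annotation release and the use of strand are not given in the sources used here. Estimated counts were rounded to whole numbers. Of 28030 identifiers, 12477 passed filterByExpr. Groups were compared by edgeR 4.0.16 (R 4.3.3), quasi-likelihood (TMM, robust), with 1 coefficient per group. P-values were adjusted by Benjamini-Hochberg over all genes tested and called under 0.05, and the script was tested on simulated data. CPM used TMM factors. A log2 fold change, averaged over groups where stated, has an SE equal to its size divided by the root of F. Alternatives were DESeq2 1.42.0 (size factors, Wald test), limma-voom (3.58.1), no filter beyond 1 count, only the groups compared, a replicate block, scaling without the 20 most abundant genes, and leaving out each library. Replicates differed from each other beyond sampling noise (chi-square per gene 35.0 to 117). Same-numbered libraries deviated together with r over 0.1 in every pair for 1 of 15 pairs of groups, PC and PP at 24 h (0.12, 0.17 and 0.15), and the labels do not pair them. Coordinates and overlaps are from GENCODE on GRCm38. Named were the 9 genes, called genes of the pathway lists, and the 3 most alike genes for Alas1, Alad and Hmox1. Members and lists were chosen with earlier results of these data known. A red cell marker of the lists is not reported here. Figures were drawn with matplotlib.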

Additional observations from a re-analysis of the deposited data

How the results depend on the processing

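The 9 genes gave 144 values, 32 of them called, and 7 settings that keep all libraries gave 1008 fits of them, of which 8 lost a call and 19 gained one. Counts of the 9 genes called moved as follows. Between the zones, 4 became 5 in fed mice when only those groups were fitted, 3 became 4 at 24 h under DESeq2, and 4 averaged over the states became 3 with no filter and 5 under DESeq2 or with scaling without the 20 most abundant genes. At 8 h against fed in PC, 2 became 1 when only those groups were fitted. For 24 h against fed in PC, 3 became 4, and for 24 h against 8 h in PC, 0 became 1, under DESeq2. For 24 h against fed in PP, 1 became 2 under DESeq2 size factors, the DESeq2 test, limma-voom, scaling without the 20 most abundant genes, and only those groups. For 24 h against 8 h in PP, 0 became 1 under DESeq2, limma-voom and the replicate block. For 24 h against fed averaged over zones, 5 became 4 with no filter or the replicate block. For 24 h against 8 h averaged over zones, 2 became 1 with no filter and 4 under DESeq2. With the replicate block, 4 of 9 were called between zones averaged over states, as without it, and it ended no call of a single gene other than those of Fech and added those of Alas1 for 24 h against 8 h in PP and of Ppox for 24 h against 8 h averaged over zones. Leaving out 1 library gave 3 to 4 genes called between the zones in fed mice and at 8 h, 2 to 3 at 24 h and 3 to 6 averaged over the states. With fasting it gave 2 to 3 for 8 h against fed in PC, 3 to 4 for 8 h against fed averaged over zones, 1 to 3 genes called for 24 h against fed in PC, 0 to 1 for 24 h against 8 h in each zone, 1 to 3 for 8 h against fed in PP, 1 to 3 for 24 h against fed in PP, 3 to 6 for 24 h against fed averaged over zones and 1 to 3 for 24 h against 8 h averaged over zones. The cause was not tested. The 3 libraries per group limit precision, and levels of Hmox1, at 39 to 332 counts, carry the most counting error of the 9.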
